A study of Mus musculus with 7 samples.

Results

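Small nucleolar RNAs (snoRNAs) were examined in neuron-enriched mouse dorsal root ganglia as the genes whose symbol starts with Snord or Snora followed by a digit. The rule took 114 of the 54309 genes in the table, 77 of the Snord class and 37 of the Snora class. The RNA came from lumbar ganglia 4 to 6 (L4-6 DRG) of male C57bl/6 mice aged 6 to 8 weeks, dissociated with enzymes and passed over an albumin gradient. All 7 samples followed a sciatic nerve injury by 72 h. Injury and dissection fell at Zeitgeber time (ZT, hours since lights on) 20 in 4 samples and ZT8 in 3 samples. No uninjured group was analysed here. The labels do not say that samples of a group were separate animals, so the p-values measure the spread between these samples.

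Box C/D snoRNAs (Snord genes) guide 2′-O-methylation of ribosomal RNA by the methyltransferase fibrillarin, and box H/ACA snoRNAs (Snora genes) guide its pseudouridylation by the enzyme dyskerin. Most mammalian snoRNAs are cut out of the introns of host genes, many of which encode ribosomal proteins or noncoding RNAs. A few, among them U3 (Snord3a), U8 (Snord118) and U17 (Snora73), are needed for cutting or folding the ribosomal RNA precursor. Sensory neurons are large cells with prominent nucleoli, where ribosomal RNA is made and modified.

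The 7 members with a mean of at least 1 TPM (the deposited estimate of abundance per transcript length, scaled to one total in every library) carried the comparison between the ZT groups. The sequences of 6 of them are printed 5′ to 3′ on the transcribed strand, as DNA letters, with Snord49a and Snord42a as relatives of tested members. The sequences are from GENCODE M21 (GRCm38), matched by gene identifier. Capitals mark TGATGA in the first 20 bases and CTGA in the last 20 bases of a Snord, or ACA in the last 10 bases of a Snora. These letters stand for the C box, the D box and the ACA box.
Snord91a: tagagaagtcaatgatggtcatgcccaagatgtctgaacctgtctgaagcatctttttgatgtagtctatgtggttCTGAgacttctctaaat
Snord49b: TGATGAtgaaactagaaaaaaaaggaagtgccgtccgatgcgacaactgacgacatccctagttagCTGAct
Snord49a: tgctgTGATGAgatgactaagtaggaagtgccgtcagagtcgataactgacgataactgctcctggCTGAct
Snord32a: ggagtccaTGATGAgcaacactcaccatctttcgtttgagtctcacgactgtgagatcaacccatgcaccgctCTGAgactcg
Snord42b: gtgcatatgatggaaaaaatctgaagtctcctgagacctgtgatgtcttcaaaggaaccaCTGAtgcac
Snord42a: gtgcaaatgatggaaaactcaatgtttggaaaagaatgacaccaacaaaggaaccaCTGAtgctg
Snora31: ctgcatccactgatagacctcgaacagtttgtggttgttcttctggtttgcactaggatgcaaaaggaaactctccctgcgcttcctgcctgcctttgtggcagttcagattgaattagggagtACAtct
Snora65: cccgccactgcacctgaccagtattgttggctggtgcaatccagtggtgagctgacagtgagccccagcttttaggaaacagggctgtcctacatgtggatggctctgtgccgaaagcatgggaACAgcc

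Snord49a and Snord49b come from one host gene and matched at 54 of 76 alignment columns (71.1%). Snord42a and Snord42b, both in Rpl23a, matched at 50 of 72 columns (69.4%). Over the members in the annotation, CTGA stood in the last 20 bases of 73 of 75 Snord sequences (97.3%) and 5 of 37 Snora sequences (13.5%). TGATGA stood in the first 20 bases of 47 of 75 Snord (62.7%) and 0 of 37 Snora sequences. ACA stood in the last 10 bases of 35 of 37 Snora (94.6%) and 8 of 75 Snord sequences (10.7%). Only the exact letters were searched, on the transcribed strand, so a sequence without them may still hold a variant of the box. A Snord was 64 to 238 nt long (median 79 nt) and a Snora 121 to 205 nt (median 132 nt), against a median longest transcript of 2897 nt for protein-coding genes.

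Several facts about the libraries bear on every result. The labels give male mice, but the Y-linked gene Ddx3y read 0 TPM in the libraries labelled ZT20 replicate 3 and ZT20 replicate 4, which go against that label. It lay between 11.7 and 24.2 TPM in the other 5 libraries. In ZT20 replicates 3 and 4, Eif2s3y and Uty were also at 0. Kdm5d, another Y-linked gene, was at 0.0162 and 0.00868 TPM in these 2 libraries, against 0.921 to 5.63 TPM in the other 5. Xist, which is transcribed from an inactive X chromosome, was at 2.21 and 2.30 TPM in those 2 libraries, at 1.08 TPM in ZT20 replicate 2 together with Ddx3y at 11.7 TPM, and at no more than 0.00467 TPM in the other 4. The main counts and the called genes are also given without ZT20 replicates 3 and 4. The 13 sensory neuron markers were above 0 in every library, with summed TPM of 19725 to 24586 at ZT20 and 16643 to 21471 at ZT8. Satellite glia markers (5 genes, all above 0 in every library) summed to 1180 to 1502 TPM at ZT20 and 1892 to 2122 TPM at ZT8, ranges that did not overlap, and plasma cell markers (3 of 5 above 0 in every library) to 267 to 486 TPM and 496 to 935 TPM. ZT8 replicate 2 held 6448 TPM of erythroid markers, against 494 and 979 TPM in the other ZT8 libraries and 1210 to 3006 TPM at ZT20, and 168 TPM of fibroblast and vessel markers, against 60.7 to 86.6 TPM in the other 6. The part of these differences in the results was not tested. In such bulk samples, fewer cells of a type and less RNA per cell cannot be told apart. Library names in the labels follow a different pattern in each group, so a batch and the ZT group cannot be told apart. Read depth is unknown, because the table holds TPM only.

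Most snoRNA genes were listed at 0 in every library. Of the 114 members, 78 were at 0 throughout and 36 (31.6%) were above 0 in at least 1 library, made up of 22 of 77 Snord (28.6%) and 14 of 37 Snora genes (37.8%). Among all genes of the table, 31897 of 54309 (58.7%) were above 0 in at least 1 library. Of the other genes between 64 and 238 nt long, 470 of 4256 (11.0%) were above 0 somewhere, including 13 of 74 protein-coding genes of that length (17.6%). The other genes annotated as snoRNA reached 85 of 954 (8.91%), and the scaRNAs, the Cajal body guides of spliceosomal RNA, 9 of 34 (26.5%). Mitochondrial tRNAs were listed in 14 of 22 cases (63.6%). The library protocol in the labels is a low-input kit that copies RNA from its poly(A) tail, which mature snoRNAs lack, and the bearing of that on these shares was not tested.

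Detection was scattered over libraries. Of the 36 listed members, 22 (61.1%) were above 0 in a single library, 9 in 2 libraries, 1 in 3, 2 in 4, 1 in 6 and 1 in all 7. Among all listed genes of the table, 14.1% were above 0 in a single library and 49.5% in all 7. Other short genes were scattered too. The share in a single library was 54.9% for the other listed genes of the same length range. It was 65.9% for the other genes annotated as snoRNA and 65.3% for those annotated as small nuclear RNA. The share was lower for listed scaRNAs (44.4%) and mitochondrial tRNAs (28.6%). Snora31 was the member present in every library, and Snord55 missed only ZT20 replicate 3. Over all members and libraries, 64 of 798 values (8.02%) were above 0, with a median of 2.21 TPM and a range of 0.409 to 14.9 TPM.

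More members were listed at ZT20 than at ZT8. Numbered by replicate from here on, the ZT20 libraries held 12, 12, 10 and 11 members above 0, whereas the ZT8 libraries held 7, 4 and 8. The groups did not overlap. The same held for all genes of the table, with 24192 to 25238 genes above 0 at ZT20 and 18297 to 22973 at ZT8, and the part of this in the snoRNA counts was not tested. ZT8 replicate 2 had the fewest of both. Snord genes alone numbered 7, 9, 6 and 8 at ZT20 against 5, 2 and 4 at ZT8, without overlap. Snora genes numbered 5, 3, 4 and 3 against 2, 2 and 4, with overlap. Of the 36 listed members, 21 were above 0 at ZT20 and at 0 in all ZT8 libraries, 8 the reverse, and 7 were above 0 in both groups, whose numbers of libraries differ (4 against 3). As shares of the listed members these were 58.3%, 22.2% and 19.4%. Over all listed genes the shares were 17.3%, 4.50% and 78.2%, and over the other listed genes of the same length range 47.0%, 16.8% and 36.2%. The 7 in both groups were Snord55, Snord91a, Snord17, Snord23, Snord99, Snord22 and Snora31. Without ZT20 replicates 3 and 4, 18 Snord and 11 Snora genes remained above 0 in at least 1 library.

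**Figure D1:**
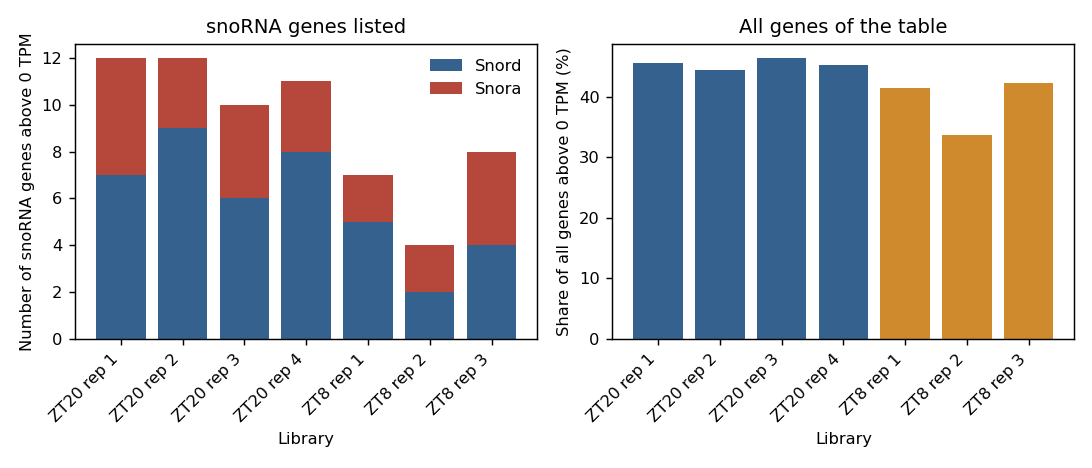
Number of snoRNA genes above 0 TPM (left, Snord and Snora classes) and share of all genes above 0 TPM in percent (right), 1 bar per library. The 4 ZT20 libraries hold 10 to 12 snoRNA genes and the 3 ZT8 libraries 4 to 8, and the share of all genes is 44.5% to 46.5% at ZT20 and 33.7% to 42.3% at ZT8.

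The summed level of each class did not separate the groups. Snord genes summed to 17.6, 33.4, 15.2 and 43.1 TPM at ZT20, and to 22.4, 5.21 and 22.3 TPM at ZT8 (27.3 ± 13.3, SD, n = 4, against 16.7 ± 9.91, SD, n = 3). Snora genes summed to 3.65, 9.88, 4.91 and 6.19 TPM at ZT20, and to 3.32, 16.6 and 3.54 TPM at ZT8 (6.16 ± 2.69, n = 4, against 7.82 ± 7.61, n = 3). Both pairs of ranges overlapped, and no test was made of these sums. The Snord difference (ZT20 minus ZT8) was 10.7 TPM with all libraries, 4.98 TPM without ZT8 replicate 2 and 5.44 TPM without ZT20 replicate 4. The Snora difference was -1.66 TPM with all libraries and 2.73 TPM without ZT8 replicate 2, whose Snora signal came from Snora31 and Snora65. A few genes made up each sum: Snord55 alone held 21.5% to 57.7% of all snoRNA TPM in the 5 libraries where it led, Snord91a led ZT20 replicate 3 with 22.7%, and Snora31 led ZT8 replicate 2 with 43.3%.

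**Figure D2:**
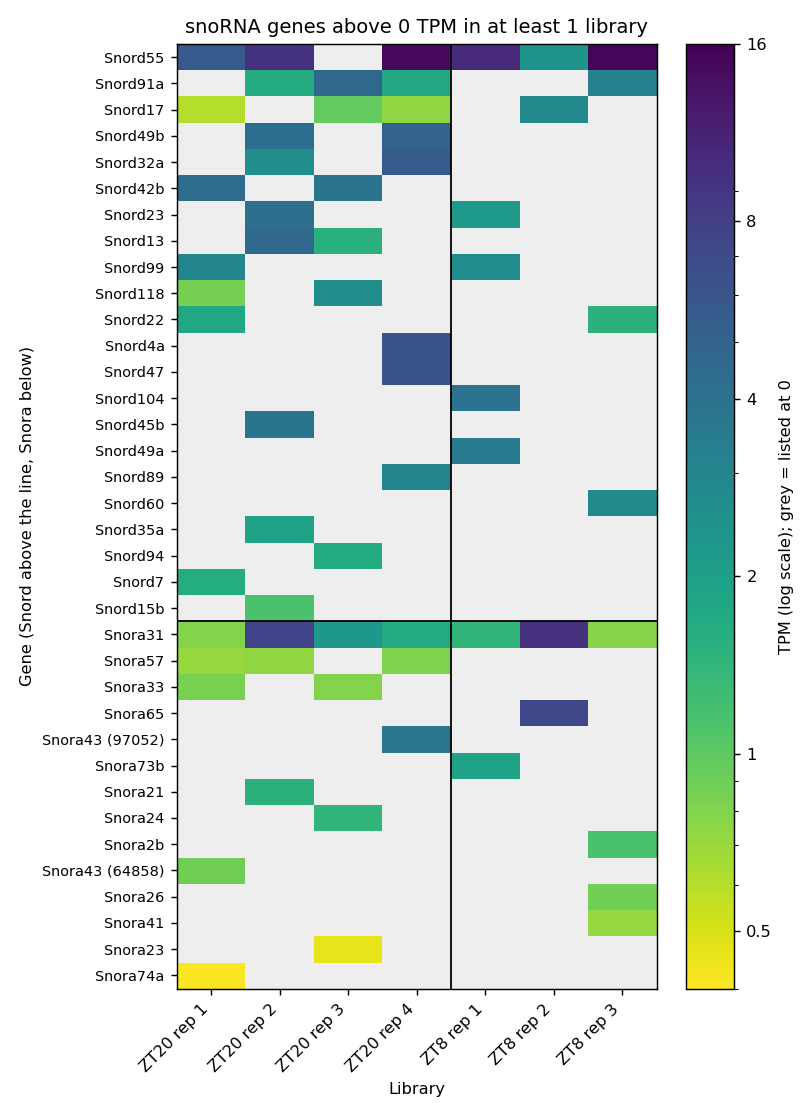
TPM (colour, log scale; grey for 0) of the 36 snoRNA genes above 0 in at least 1 library, 1 row per gene and 1 column per library, with 22 Snord genes above the line and 14 Snora genes below it. Snord55 and Snora31 fill 6 and 7 columns, and most other genes fill 1.

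Among the box C/D genes, Snord55 had the highest mean. By replicate number, Snord55 read 5.57, 9.32, 0 and 14.5 TPM at ZT20, and 10.1, 2.37 and 14.9 TPM at ZT8. Both groups held high and low libraries, and the ZT20 values enclosed nearly the whole ZT8 range. The log2 difference, ZT20 minus ZT8 on the log2(TPM + 1) scale, was -0.56 (SE 0.92, 95% interval -2.65 to 1.52, limma adjusted p = 0.691). It was 0.27 without ZT20 replicate 3, the library at 0, and -1.22 without ZT8 replicate 2.

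Snord91a lies in an intron of Tsr1, a factor for maturation of the small ribosomal subunit (chromosome 11, 93 nt). It was at 0, 1.65, 4.57 and 1.74 TPM at ZT20 and at 0, 0 and 3.15 TPM at ZT8. The groups overlapped, with 3 of 4 ZT20 libraries and 1 of 3 ZT8 libraries above 0. Its log2 difference was 0.65 (SE 0.67, 95% interval -0.89 to 2.19, limma adjusted p = 0.519). Leaving out single libraries gave 0.27 without ZT20 replicate 3, 0.31 without ZT8 replicate 1 or 2, and 1.33 without ZT8 replicate 3.

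Snord49b, Snord32a and Snord42b were each above 0 in 2 ZT20 libraries and at 0 in all 3 ZT8 libraries. Snord49b, in an intron of the noncoding gene 2410006H16Rik (chromosome 11, 72 nt), was at 4.24 TPM in ZT20 replicate 2 and 4.96 TPM in replicate 4. Snord32a, in an intron of Rpl13a, a protein of the large ribosomal subunit (chromosome 7, 83 nt), was at 2.58 TPM and 5.63 TPM in the same replicates 2 and 4. Snord42b, partly within an exon of Rpl23a, another large-subunit protein (chromosome 11, 69 nt), was at 4.27 TPM in ZT20 replicate 1 and 3.89 TPM in replicate 3. With the other ZT20 libraries at 0, the groups overlapped for each, and the limma adjusted p-values were 0.236 for Snord49b, 0.255 for Snord32a and 0.239 for Snord42b. No fold of a single gene is given against a group listed at 0.

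The sequence relatives did not share libraries. Snord49a was listed in ZT8 replicate 1 alone, at 3.54 TPM, where Snord49b was at 0. Snord42a was at 0 in every library. Of the other Snord genes by mean level, Snord4a (in Rpl23a) was at 6.26 TPM and Snord47 (in Gas5) at 6.24 TPM, each in ZT20 replicate 4 only. Snord23, in Nop53, was at 4.11 TPM in ZT20 replicate 2 and 2.17 TPM in ZT8 replicate 1. Snord99, in the noncoding gene Snhg12, was at 2.94 TPM in ZT20 replicate 1 and 2.68 TPM in ZT8 replicate 1. These genes showed no order between the groups beyond the libraries in which they appeared.

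Several members are known for processing of the ribosomal RNA precursor. U3 (Snord3a) was at 0 in every library, as were Snord14a and both Snord3b-ps1 entries. The whole sequences of Snord3a and of 1 Snord3b-ps1 entry also lie in another gene of the annotation. Reads of such copies cannot be told apart by sequence, so these zeros do not show that U3 was absent. U8 (Snord118) was at 0.847 TPM in ZT20 replicate 1 and 2.58 TPM in ZT20 replicate 3. Snord13, which guides acetylation of the small-subunit RNA, reached 4.66 TPM in replicate 2 of that group and 1.53 TPM in replicate 3. For U17, Snora73a was at 0 throughout and Snora73b at 1.88 TPM in ZT8 replicate 1 only. U22 (Snord22), in Snhg1, was at 1.77 TPM in ZT20 replicate 1 and 1.49 TPM in ZT8 replicate 3. These scattered values are like those of the other members. Snord115 and Snord116, clusters of the imprinted Snhg14 region, were not analysed here.

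Among the box H/ACA genes, Snora31 was the one gene above 0 in all 7 libraries. It lies in an intron of Tpt1, which encodes the translationally controlled tumour protein (chromosome 14, 130 nt). Its TPM was 0.796, 7.65, 2.24 and 1.68 at ZT20 and 1.44, 9.44 and 0.785 at ZT8 (3.09 ± 3.10, SD, n = 4, against 3.89 ± 4.82, SD, n = 3). In each group a single library, replicate 2, stood several-fold above the others, and the ranges overlapped. The log2 difference was -0.067 (SE 0.69, 95% interval -1.65 to 1.52, limma adjusted p = 0.953), and it was 0.71 without ZT8 replicate 2.

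Snora65, which lies within an exon of a retained-intron transcript of Rpl12 (chromosome 2, 130 nt), was at 7.16 TPM in ZT8 replicate 2 and at 0 in the other 6 libraries (limma adjusted p = 0.328). Snora57 had values of 0.708, 0.740 and 0.814 TPM in replicates 1, 2 and 4 of ZT20, with the remaining 4 libraries at 0. Its mean was under 1 TPM. Snora43, which the table carries under 2 identifiers, was listed once under each: at 3.70 TPM in ZT20 replicate 4 and at 0.888 TPM in ZT20 replicate 1. Snora33, in Rps12, had 0.844 TPM in ZT20 replicate 1 and 0.796 TPM in ZT20 replicate 3. The remaining Snora genes above 0, Snora21, Snora24, Snora2b, Snora26, Snora41, Snora23 and Snora74a, had 1 value each, between 0.409 TPM and 1.49 TPM.

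None of the members passed the test between ZT20 and ZT8. With limma, 0 of the 7 members with a mean of at least 1 TPM had an adjusted p under 0.05, and 0 of 7 had an unadjusted p under 0.05. Among all 14800 genes tested, 16.4% passed the adjusted threshold, 12.8% higher and 3.61% lower at ZT20, and 34.6% had an unadjusted p under 0.05. In 0 of 7 members did the groups fail to overlap, against 33.2% of all genes tested. Of the 7, 4 were at 0 throughout one group, so they passed the filter on the level of the other. The members next to the filter were Snora65 and Snord42b inside it, with means of 1.02 and 1.17 TPM, and Snord23 and Snord4a outside it, with 0.898 and 0.894 TPM. With no filter, 36 members were tested and 0 passed, where 3.69% of 31897 genes passed, and 1 member, Snora57, had an unadjusted p under 0.05. The 95% intervals of Snord55 and Snora31 run from a drop of 2.65 and 1.65 to a rise of 1.52 on the log2 scale, so differences within these limits were not excluded. Without ZT20 replicates 3 and 4, 5 members were tested and 0 passed, but 0 of all 14687 genes passed with those libraries left out, with 2378 genes at an unadjusted p under 0.05.

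**Figure D3:**
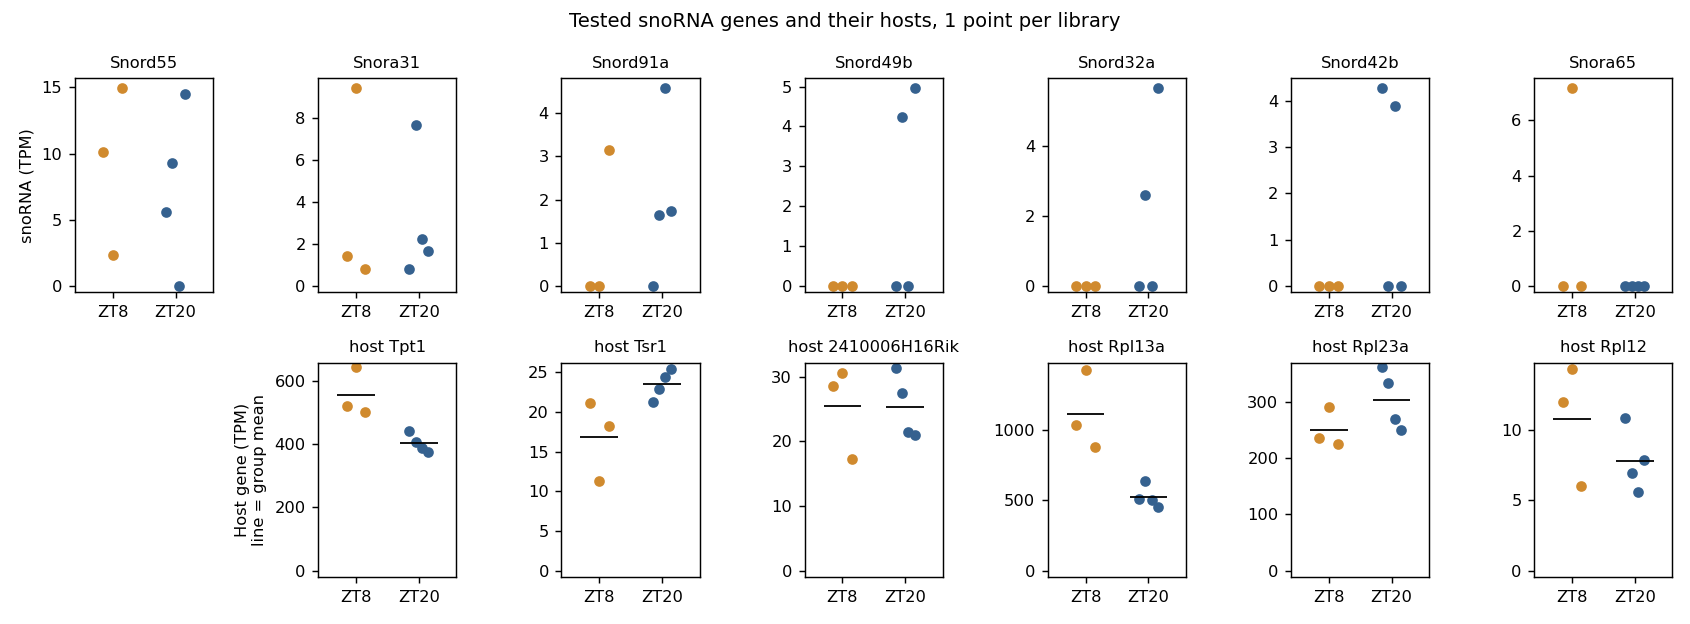
TPM of the 7 tested snoRNA genes (upper panels) and of the host genes of 6 of them (lower panels), 1 point per library at ZT8 and ZT20. A line marks each group mean in the lower panels only. The snoRNA values overlap between groups in all 7 upper panels, whereas Rpl13a is at 526 ± 79.4 TPM at ZT20 (SD, n = 4) and 1111 ± 282 TPM at ZT8 (SD, n = 3).

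Most members lie inside another gene on the same strand. In GENCODE M21, 112 of the 114 members were found by identifier, and 102 of these had a host, 75 hosts in all. An intron held 49 members, an exon of a host transcript held 44 whole, and 9 overlapped an exon in part. Of the 44 in an exon, 31 lay in a transcript annotated as retaining an intron, and the sequence of each of the 44 is whole in a transcript of its host. Reads from such a host transcript and from the snoRNA cannot be told apart by sequence. For 8 members there was more than 1 host, and 10 members overlapped a gene on the other strand.

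Detection was counted by position in the host. Members in an intron were listed in 16 of 49 cases (32.7%), members in an exon in 11 of 44 (25%) and members partly in an exon in 3 of 9 (33.3%). Of the 10 members with no host, 6 (60%) were listed: Snord13, Snord104, Snord118, Snora57 and both Snora43 entries. The sequence of 1 Snora43 entry is whole in the other, so reads from it cannot be assigned by sequence. In all, 3 of the 10 were whole in another gene. U8 is known to be transcribed from its own promoter.

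Listed members were found in weakly and strongly expressed hosts. Across 102 members with a host, the Spearman correlation of host mean TPM with the number of libraries in which the member was above 0 was -0.037, a description over members that share hosts and libraries. Members of hosts at 100 TPM or more were listed in 11 of 40 cases, and those of hosts under 100 TPM in 19 of 62. Atp5b, a subunit of mitochondrial ATP synthase, had a mean of 1064 TPM while its Snord59a was at 0 in every library. The correlation of length with the number of libraries was 0.18 over 112 members. Of the 20 hosts with more than 1 member, 11 had none listed, 6 had 1 and 3 had more than 1. In Rpl13a, Snord32a and Snord35a were both above 0 in ZT20 replicate 2, where Snord35a was at 1.91 TPM, while Snord34 was at 0 throughout. In Gas5, Snord47 was listed in a single library, and Snord78 and Snord80 in none.

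**Figure D4:**
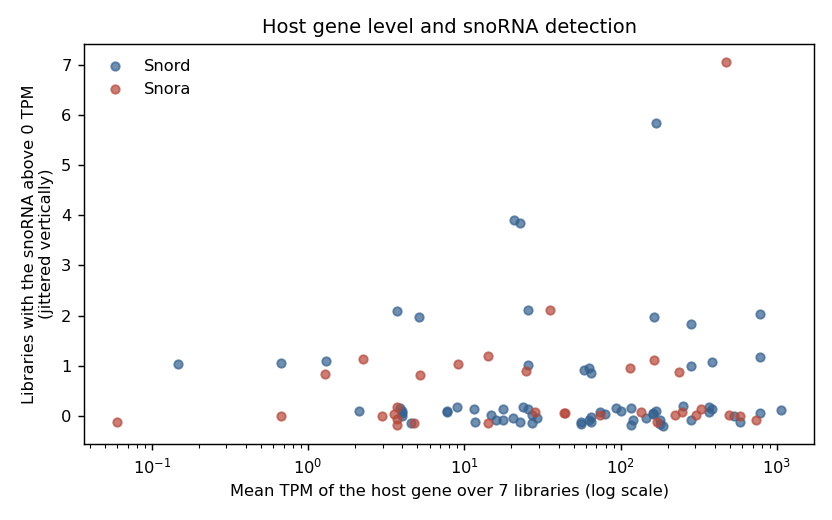
Mean TPM of the host gene over 7 libraries (x axis, log scale) against the number of libraries with the snoRNA above 0 (y axis, jittered vertically), 1 point per snoRNA gene with a host (n = 102). Members at 0 in every library span the whole range of host levels up to 1064 TPM, and the Spearman correlation is -0.037.

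The share of host genes that differed was near that of all genes. Of 71 hosts tested, 11 were higher and 3 lower at ZT20 (limma adjusted p under 0.05), where 12.8% of all genes tested were higher and 3.61% lower, with a median log2 difference of 0.028 against 0.23 over all genes tested. Rpl13a, host of Snord32a, was at 526 ± 79.4 TPM at ZT20 (SD, n = 4) and 1111 ± 282 TPM at ZT8 (SD, n = 3), a log2 difference of -1.06 (SE 0.18, limma adjusted p = 0.00999). Snord32a, above 0 in 2 ZT20 libraries only, entered the test on its ZT20 level and did not pass (limma adjusted p = 0.255). Its direction is therefore not set against that of the host. Tpt1, host of Snora31, was lower at ZT20 (403 ± 29.6 against 556 ± 75.9 TPM, log2 difference -0.46, SE 0.12, limma adjusted p = 0.0366). Gas5, a noncoding host whose product is cut into many box C/D snoRNAs, was higher (77.9 ± 16.1 against 46.1 ± 6.30 TPM, log2 difference 0.73, SE 0.19, limma adjusted p = 0.0339). The importin gene Ipo7, host of Snora23, was also higher (31.0 ± 4.21 against 16.3 ± 1.95 TPM, log2 difference 0.88, SE 0.16, limma adjusted p = 0.0120). The hosts of the other tested members that are named here did not pass: Tsr1 differed by 0.49 (adjusted p = 0.137), Rpl23a by 0.27 (0.265), Rpl12 by -0.38 (0.415) and 2410006H16Rik by 0.012 (0.977), all log2 values from limma. Ribosomal protein genes have near-identical pseudogene copies, so the assignment of their reads is uncertain.

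Rpl13a passed under each alternative except leaving out both ZT20 replicates 3 and 4 (-0.93, adjusted p = 0.168). Tpt1 missed the threshold with quantile normalization (adjusted p = 0.0632) and without ZT20 replicate 1, 2, 3 or 4 or ZT8 replicate 1. Gas5 missed it with median-ratio scaling (0.144), with quantile normalization (0.0915) and without any one of 5 libraries (ZT20 replicates 1, 2 and 3 and ZT8 replicates 1 and 3). Ipo7 missed it without ZT20 replicate 3 (0.0513) and with the replicate number as a block (0.0635). Without ZT20 replicates 3 and 4, Tpt1 differed by -0.38 (adjusted p = 0.331), Gas5 by 0.91 (0.141) and Ipo7 by 0.72 (0.201). Median-ratio scaling moved the median log2 difference of all genes from 0.23 to 0.033, and the share of calls that were higher at ZT20 from 78.1% to 49.3% (57.2% under quantile normalization).

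A list of 20 noncoding genes held snoRNA hosts and also Meg3 and Mirg, which are transcribed beside the host Rian and are not themselves known for snoRNAs. Of the 20, 18 were tested, as 19 entries because Snhg4 is listed under 2 identifiers. Of the 19 entries, 5 were higher and 0 lower at ZT20 (limma), with 7 of 19 at an unadjusted p under 0.05 and a median log2 difference of 0.38. Over all genes tested, 12.8% were higher, 34.6% had an unadjusted p under 0.05 and the median was 0.23. Without Meg3 and Mirg, 3 of 17 entries were higher and 0 lower. Rian, a noncoding RNA of an imprinted cluster that hosts many box C/D snoRNAs, was at 121 ± 20.6 TPM at ZT20 and 46.4 ± 5.16 TPM at ZT8 (log2 difference 1.35, SE 0.16, limma adjusted p = 0.00321). Its neighbours Meg3 (828 ± 130 against 505 ± 81.8 TPM, 0.71, adjusted p = 0.0217) and Mirg (8.98 ± 1.94 against 3.93 ± 1.67 TPM, 1.05, adjusted p = 0.0361) were also higher with limma. Snhg6 was at 16.5 ± 4.98 TPM and 4.88 ± 2.19 TPM (1.61, SE 0.32, limma adjusted p = 0.0153). The fifth was Gas5. Snhg14, the host of Snord115 and Snord116, differed by 1.11 with limma adjusted p = 0.139, and by 1.67 without ZT8 replicate 2 (adjusted p = 0.0220). With median-ratio scaling, Meg3 (0.48, adjusted p = 0.0878), Mirg (0.85, 0.0922) and Gas5 (0.50, 0.144) no longer passed, while Rian and Snhg6 passed under every other scaling, filter, weighting and single library left out. Meg3 also lost its call without ZT20 replicate 1 or 3 or ZT8 replicate 3, and Mirg without any one library except ZT8 replicate 2. Without ZT20 replicates 3 and 4 together, Rian differed by 1.17 (adjusted p = 0.0943), Snhg6 by 1.85 (0.151), Meg3 by 0.81 (0.164) and Mirg by 1.28 (0.186).

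Among 20 protein-coding snoRNA hosts, 2 were higher and 3 lower at ZT20 in limma, against the 12.8% and 3.61% of all genes, with a median log2 difference of -0.089. The higher genes were Eef2, the translation elongation factor (222 ± 20.5 against 138 ± 37.0 TPM, 0.71, limma adjusted p = 0.0360), and Ncl, the nucleolar protein nucleolin (85.9 ± 2.48 against 56.7 ± 14.4 TPM, 0.62, adjusted p = 0.0443). Rpl3, a large-subunit protein (301 ± 24.5 against 457 ± 60.9 TPM, -0.60, limma adjusted p = 0.0165), and the helicase Eif4a1 (467 to 519 against 607 to 731 TPM over the libraries, -0.46, adjusted p = 0.0231) were lower together with Rpl13a. With median-ratio scaling, Eef2 (0.48, adjusted p = 0.109) and Ncl (0.39, 0.118) no longer passed, and Eif4a1 missed the threshold under quantile normalization (-0.35, adjusted p = 0.0883). Eef2 lost its call without any one of the ZT20 libraries or ZT8 replicate 1, Ncl without any one of the ZT20 libraries or ZT8 replicate 3, Eif4a1 without any one library except ZT8 replicate 2, and Rpl3 without ZT20 replicate 3 or 4. Ncl differed by 0.41 without ZT8 replicate 2. Without both ZT20 replicates 3 and 4, Eef2 differed by 0.81 (adjusted p = 0.206), Ncl by 0.65 (0.272), Rpl3 by -0.51 (0.228) and Eif4a1 by -0.50 (0.202).

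The proteins that bind and assemble snoRNAs gave 0 higher and 1 lower of 22 in limma, with 4 of 22 at an unadjusted p under 0.05, where 12.8% of all genes were higher, 3.61% lower and 34.6% at an unadjusted p under 0.05. The box C/D core proteins Fbl (fibrillarin), Nop56, Nop58 and Snu13 gave 0 of 4 past the threshold in limma and 0 of 4 at an unadjusted p under 0.05, with a median log2 difference of -0.14. Fbl was at 29.4 ± 4.48 TPM at ZT20 and 25.9 ± 2.35 TPM at ZT8 (0.17, adjusted p = 0.475). The box H/ACA core proteins Dkc1 (dyskerin), Nhp2, Nop10 and Gar1 gave 0 of 4, with 1 at an unadjusted p under 0.05 and a median of 0.065. That gene was Nhp2, at 109 ± 15.9 TPM and 144 ± 12.3 TPM (-0.41, limma adjusted p = 0.0767), and it passed without ZT20 replicate 2 (-0.50, adjusted p = 0.0446). Dkc1 differed by 0.020 with all libraries and by -0.55 without ZT8 replicate 2 (limma adjusted p = 0.0474). Of 14 assembly and maturation factors, 0 were higher and 1 was lower, with a median of 0.10. Znhit3, an assembly factor of box C/D particles, was at 80.9 ± 12.0 TPM at ZT20 and 173 ± 81.8 TPM at ZT8 (95% interval of the log2 difference -1.61 to -0.39, limma adjusted p = 0.0379), without overlap. It lost its call when any one of ZT20 replicates 1 to 4 was left out, where its adjusted p rose to as much as 0.104. The ZT8 values were 130, 267 and 121 TPM, and without ZT8 replicate 2 the log2 difference was -0.64 (adjusted p = 0.0253). Without ZT20 replicates 3 and 4 it differed by -0.84 (adjusted p = 0.309). With median-ratio scaling, Znhit3, Nhp2 (-0.64, adjusted p = 0.0409), Snu13 (-0.42, 0.0355) and the chaperone component Pih1d1 (-0.68, 0.0264) were lower at ZT20, and Pih1d1 also passed without ZT8 replicate 1 (-0.55, 0.0414). Under median-ratio scaling, 7.84% of all genes tested were lower and 7.62% higher.

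**Figure D5:**
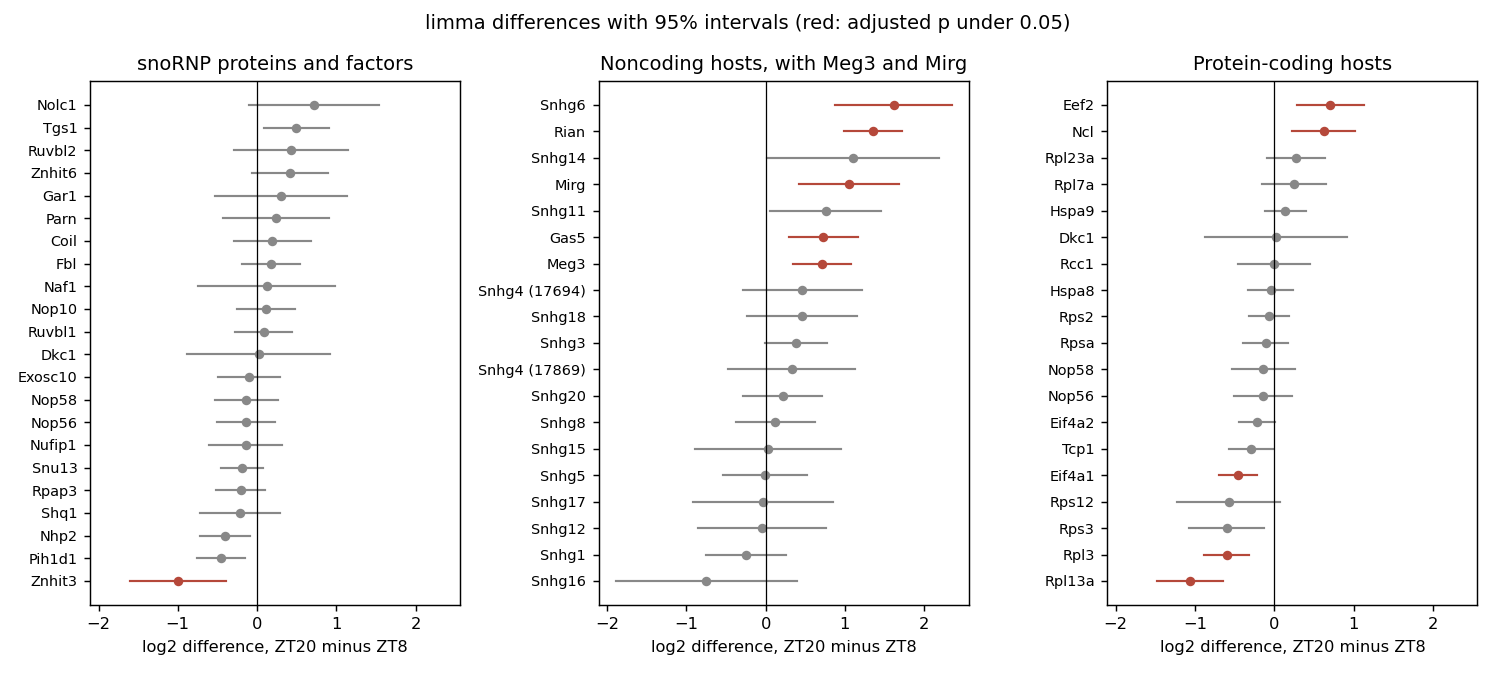
limma log2 differences (x axis, ZT20 minus ZT8) with 95% intervals for the snoRNA-binding proteins and their assembly factors and for snoRNA host genes (19 noncoding entries, among them the neighbours Meg3 and Mirg, with Snhg4 under 2 identifiers, and 19 of 20 protein-coding), 1 point per entry, in red where the adjusted p is under 0.05. Of 22 proteins and factors, 1 (Znhit3) is red and lower, and of 19 noncoding entries, 5 are red and higher at ZT20.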

How the data were processed

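RNA sequencing of 7 samples was used, 4 at ZT20 and 3 at ZT8, grouped by the sample titles. The authors deposited TPM values, with a column for each sample, and 0 columns were left unused. The submitters' processing notes name GRCm39, FastQC 0.11.9, Trim Galore 0.6.6, Salmon 1.6.0 and DESeq2 1.34.0, without a role. The annotation release and the use of strand are not given in the sources used here. Per the labels' protocols, a low-input kit was applied to total RNA. TPM divides reads by transcript length, so a read on a short gene counts for more, and depth and counting error are unknown. Results on 1 host gene and the sequence of 1 snoRNA are not reported here.

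Values were tested as log2(TPM + 1), a scale that understates changes of low genes. The genes whose mean reached 1 TPM were fitted with limma 3.58.1 (intensity trend, no covariate, two-sided, R 4.3.3) with Benjamini-Hochberg adjustment over all 14800, and a threshold of 0.05. The procedure was tested on simulated data. Hosts, lengths and sequences came from GENCODE M21 (51484 of 54309 genes matched by identifier). Because its build, GRCm38, is not the GRCm39 of the notes, no coordinates are given. The members and lists were chosen with earlier results of these data known. Named genes were the 10 members of each class with the highest mean TPM, any member past the threshold, rRNA-processing snoRNAs, the snoRNAs of Rpl13a and Gas5, and hosts. Further genes were named after their values were seen: Nhp2, Dkc1, Znhit3, Snu13 and Pih1d1 from the fixed protein lists, Ipo7, and single listed members. Alternatives were other pseudocounts, filters, scalings, weights and thresholds, removal of snoRNAs from the total, a replicate block, and leaving out each library. Leaving out both ZT20 replicates 3 and 4 was added after the data were seen. Tables and figures were made with the R package data.table (version 1.17.8), Python 3.11.15, pandas 2.3.3, scipy 1.17.1 and matplotlib 3.10.9.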

Additional observations from a re-analysis of the deposited data

Results flagged for a closer look

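In a group of 4 libraries, a library was taken to stand apart when its gap to the nearest other library, as a share of the whole range, exceeded Dixon's 95% critical value. Of 43 results examined, 18 met this at ZT20. Chance alone would give 2.15 for values without ties, a number that does not apply to entries mostly at 0. In 17 of them 1 library was above 0 beside 3 libraries at 0, which gives a share of 1 whatever the value. These were Snord23, Snord4a, Snord47, Snord99, Snord45b, Snord22, Snord89, Snord35a, Snord94, Snord7, Snord15b, Snora21, Snora24, Snora23, Snora74a and both entries of Snora43, with values from 0.409 to 6.26 TPM. In Snora57 the library at 0, ZT20 replicate 3, stood apart from the other ZT20 libraries at 0.708 to 0.814 TPM, with a share of 0.871.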

How the results depend on the processing

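The count of snoRNA genes past the threshold was 0 in either direction in limma under every alternative run, and the lowest adjusted p of a member with a mean of at least 1 TPM was 0.133. The median log2 difference of the 5 tested Snord genes was 1.14. Because 3 of the 5 were at 0 throughout ZT8 and passed the filter on their ZT20 level, and Snora65 on its ZT8 level, the medians depend on the filter and the pseudocount, are no measure of a fold, and nothing is read from them. The Snord median was 2.65 with a pseudocount of 0.1, 0.37 with no filter, and -0.56 with a mean of at least 5 TPM, where Snord55 alone was tested. It was 0.36 without both ZT20 replicates 3 and 4, and 0.61 to 1.02 when single libraries were left out. The median of tested Snora genes was -0.54, and -1.04 to 0.71 when single libraries were left out, with 0.71 without ZT8 replicate 2. A mean of at least 5 TPM left no Snora gene to test. With 14 Snora genes listed above 0, 7 reached 1 TPM in a library. The Spearman correlation between member and host differences was 0.14 over 7 members and 0.37 over the 6 with a single host. Both include members that passed the filter on the level of 1 group alone, so nothing is read from them either. Of the proteins and factors, 1 was lower at ZT20. That count was 0 with no filter, where 1178 of 31897 genes passed in either direction. It was 2 with a mean of at least 5 TPM (2280 of 10268 genes passed). It was 4 with median-ratio scaling (2288 of 14800) and 0 without an intensity trend (2197 of 14800). With array weights it was 3 (3899 of 14800), and without both ZT20 replicates 3 and 4 it was 0 (0 of 14687). When single libraries were left out it was 0 to 2, where 723 to 3047 genes passed. At a threshold of 0.10, 3 were lower and 1 was higher, where 4079 of 14800 genes passed in either direction. The cause of these changes was not tested.

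With the replicate number as a block, 1099 of 14800 genes passed, against 2433 without it, and 0 snoRNA genes did. Tpt1, Ipo7, Mirg, Eef2, Ncl and Eif4a1 missed the threshold with the block, as Tpt1, Gas5, Meg3, Mirg, Eef2, Ncl, Eif4a1 and Znhit3 did with no filter. With no intensity trend, Tpt1, Gas5, Eef2, Ncl, Eif4a1 and Znhit3 missed it, and Mirg did with quantile normalization. The difference of Snora31 changed sign in 6 of 17 alternatives and that of Snord55 in 1 of 18. Equal numbers do not mark a shared animal in the labels, and the deviations of equally numbered samples correlated at -0.014, 0.15 and 0.083, and 3 of 6 samples correlated best with their own number. With zeros in most libraries and depth unknown, an absent value does not show an absent snoRNA.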
